A study of Mus musculus with 2 samples.

Results

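Genes annotated as antisense or as noncoding RNA of a bidirectional promoter were read in long-read RNA sequencing of mouse gastrocnemius, the large calf muscle. An antisense gene lies on the strand opposite another gene, and a bidirectional promoter RNA starts beside the start of a coding gene and runs away from it. A gene was taken as a member when the deposited annotation gave it 1 of these types and the tables of both libraries together held 10 or more of its reads. That gave 121 members, 103 antisense and 18 bidirectional, out of 8692 annotated genes with that many reads. The annotation holds 3149 genes of the 2 types, of which 753 had a read and 632 of those stayed below the minimum.

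The muscle came from 25-day-old male mice of strain B6CASTF1/J, an F1 cross of C57BL/6J with CAST/EiJ, without any treatment named in the labels. The series has 1 group of 2 libraries, each started from 2 µg of RNA and with spike-in RNA added. The labels name a separate animal for each library but give the same donor record, so the libraries were taken as separate animals. Replicate 1 held 1215785 reads in annotated genes and replicate 2 held 1549606. Levels are CPM, the reads of a gene per 1000000 such reads. No read at all, with 3 counts as the limit, allows a level of 2.47 CPM for replicate 1 and of 1.94 CPM for replicate 2.

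All 7 marker genes of muscle fibres were detected, and their levels summed to 341497 and 205357 CPM in replicates 1 and 2. Some other lists were unequal too: 5 slow fibre markers summed to 2069 and 5889 CPM, 5 fibroblast markers summed to 4567 and 900 CPM, and 4 Schwann cell markers to 62.5 and 312 CPM. Closer were adipocyte (18.9 and 18.1 CPM), immune (60.0 and 58.7) and satellite cell markers (26.3 and 21.3). Endothelial markers summed to 43.6 and 20.7 CPM, smooth muscle and pericyte markers to 184 and 125, and erythroid markers to 326 and 509. In such tissue RNA, fewer cells of a type and less RNA per cell cannot be told apart. With 1 group, every test compares these 2 libraries, not conditions, and covers counting error only.

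As background, transcription from many promoters runs in both directions, and the RNA that leaves away from the gene is often short-lived. Antisense RNAs can act on the gene opposite by the passage of the polymerase, by chromatin changes or by pairing with the other RNA, and many have no known role. The imprinted Airn, which silences Igf2r in cis, is the textbook case, and antisense RNA has been described between the fast myosin heavy chain genes of rodent muscle. An antisense gene shares its sequence with the other strand, so its reads can be told from those of the coding gene only if strand is kept. No source used here says whether the authors kept strand when assigning reads. Beside the strand given to each model, splice sites are a sign of strand that the files hold.

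The members made up 0.134% of gene-assigned reads in replicate 1 (1635 reads) and 0.335% in replicate 2 (5185 reads). Most were scarce: the median member had 23 reads over both libraries, 16 had 100 or more and 50 had under 20. Reads were found in both libraries for 117 members, while 3 had none in replicate 1 and 1 had none in replicate 2. Just inside the minimum stood 6330418K02Rik and Gm16552, each with 3 and 7 reads in replicates 1 and 2, and Gm26724 with 10 and 0. Just outside, with 9 reads in all, were 12 genes, among them 1700007L15Rik with 1 and 8, 1700034P13Rik with 0 and 9, and 4921516A02Rik with 1 and 8. The members were chosen by their summed reads, so their levels are a description.

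Spliced reads, from models with more than 1 exon, and single-exon reads divided the members. Single-exon reads made up 29.7% of member reads in replicate 1 (exact 95% Clopper-Pearson interval 27.5 to 32.0) and 38.1% in replicate 2 (36.8 to 39.5), a mean of 33.9% ± 5.94 (SD, n = 2). In protein-coding genes with the same minimum the share was 3.72% and 12.1%, and in lincRNA genes, noncoding genes that lie between others, 39.4% and 49.0%. By member, 60 had over 50% spliced reads, 60 had over 50% single-exon reads, and Gm10602 lay at exactly 50%. Most lay near either end: 42 members were under 10% spliced, 35 at 90% or above, and 36 had no spliced read at all. Over 50% of reads were spliced in 13 of the 18 bidirectional and 47 of the 103 antisense members. The annotation gives no spliced transcript for 7 members, 6 of them with over 50% single-exon reads. For those 7 a single exon is the annotated form. The bidirectional 2610306M01Rik, for example, had all 27 reads on its annotated single-exon transcript. Single-exon shares were 15.5% and 6.46% for the bidirectional type and 35.6% and 53.6% for the antisense type, and the bidirectional shares were 42.3% and 31.0% without Ndufb1-ps, above the antisense share in replicate 1. These shares move with a few members and with the class of reads: without Ndufb1-ps, the most abundant, the mean share was 44.0%, and without reads of the genomic class (unspliced or partly spliced over a gene) it was 6.89%, with 8.06% in replicate 1 and 5.71% in replicate 2, the opposite order.

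**Figure D1:**
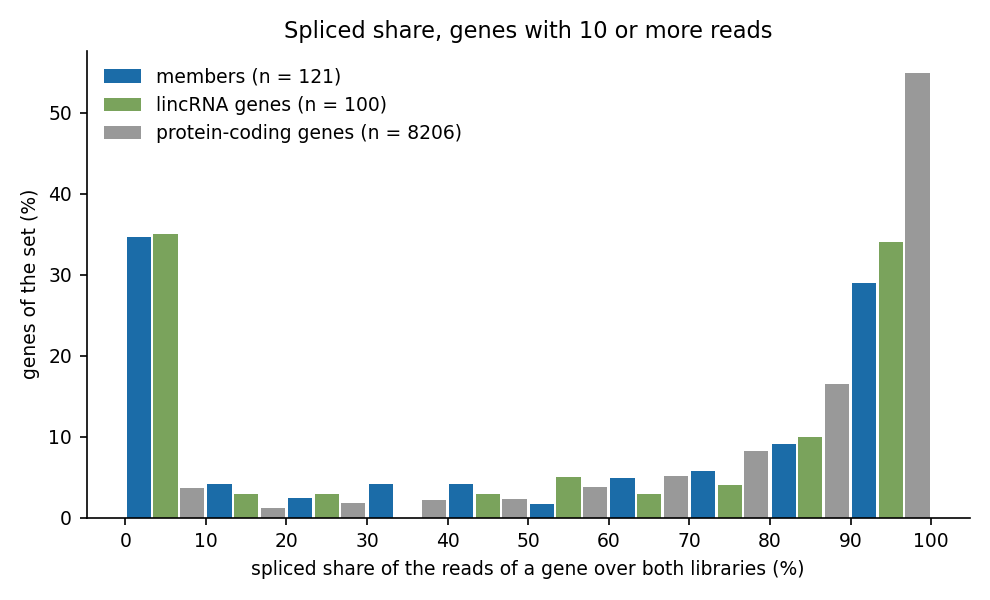
The horizontal axis is the spliced share of a gene's reads over both libraries (%), in steps of 10, and the vertical axis the share of genes of each set (%). Members (n = 121) pile up at both ends, 34.7% under 10% spliced and 28.9% at 90% or above, as do lincRNA genes (n = 100), while 54.9% of protein-coding genes (n = 8206) lie at 90% or above.

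The bidirectional gene Ndufb1-ps led the list. It lies at chr12:101968090-101977068 (mm10, minus strand) and is named after Ndufb1, a subunit of mitochondrial complex I, although the annotation used here gives it no coding type. It had 303 reads in replicate 1 and 1357 in replicate 2, or 249 and 876 CPM, which was 18.5% and 26.2% of all member reads. Spliced reads made up 99.8% of them, with a lower 95% limit of 99.5%. An annotated transcript with 2 introns took 238 and 1068 reads, and another annotated transcript 56 and 235. The gene overlaps the start of Cpsf2, a subunit of the mRNA 3′ end cleavage complex, which had only 19 and 8 reads. Of the reads of the pair, 94.1% and 99.4% were thus assigned to Ndufb1-ps in replicates 1 and 2. Whether its RNA codes for a protein was not tested, so the pair is not read as noncoding RNA above coding RNA.

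The exon junctions show what was read as spliced RNA. Each line gives the last 20 exon bases in lower case and the first 20 bases of the next exon in capitals, 5′ to 3′ on the gene's strand, from the GENCODE M21 transcripts, for the main annotated transcript of members described here.
Ndufb1-ps junction 1: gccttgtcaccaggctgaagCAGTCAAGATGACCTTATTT
Ndufb1-ps junction 2: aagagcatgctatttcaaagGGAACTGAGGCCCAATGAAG
Atcayos: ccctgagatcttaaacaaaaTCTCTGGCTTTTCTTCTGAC
Gm29773: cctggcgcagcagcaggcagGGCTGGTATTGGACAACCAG
Myhas: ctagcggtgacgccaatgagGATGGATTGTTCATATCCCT
9430073C21Rik: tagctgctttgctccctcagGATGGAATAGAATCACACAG
Hoxd3os1: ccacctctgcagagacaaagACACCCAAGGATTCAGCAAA

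The member introns whose ends could be read carried splice signals of the strand given to them. The transcript sequences cover both ends of 90 of the 594 member introns seen, and of these 83 began with GT and ended with AG, 7 had GC and AG, and none had CT and AC, the same signal read from the other strand. In coding genes 95.1% of covered introns were GT to AG and 0.0766% were CT to AC. Of the 689 spliced models of members, 0 repeated an intron of the coding gene on the other strand. All these models were already placed on the strand of their gene, and how the authors set it is not given. The signals are thus not an independent check of strand, and most member introns were not covered.

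Some spliced members start near an abundant muscle gene on the other strand. These cases were picked after the levels were known and are described one by one. The annotated start of Gm29773 (chr8:123896273-123900620, plus strand) lies 1522 bp from the start of Acta1, skeletal alpha-actin. The gene runs away from Acta1 into the end of Nup133, a nuclear pore subunit. It had 75 and 92 reads in replicates 1 and 2 (61.7 and 59.4 CPM), 161 of them spliced, and its level was alike in the libraries. Nup133 had 17 and 16 reads, and Acta1 86730 and 102245. Gm29773 has 1 annotated transcript, with 1 intron and 8 and 2 reads. The class of new combinations of known splice sites held 74 reads, and the class with a new splice site held 44. Chains of both classes run from 123895983 to 123901750, past both ends of the annotated gene. The known sites are thus not all from its own annotation, and such chains begin upstream of its annotated start.

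A pair of members sits in the same way in the cluster of fast myosin heavy chain genes. Myhas (chr11:67211256-67237573, minus strand) starts 456 bp from the start of Myh4, the myosin of 2B fibres, and ends over Myh1, the myosin of 2X fibres. 9430073C21Rik (chr11:67195680-67199234) starts 818 bp from the start of Myh1 and ends over Myh2, the myosin of 2A fibres. Myhas had 39 and 72 reads (32.1 and 46.5 CPM) and 9430073C21Rik had 7 and 22 (5.76 and 14.2 CPM), nearly all spliced. The coding genes had fewer reads in replicate 2: Myh4 had 29017 reads in replicate 1 and 15234 in replicate 2, Myh1 had 6189 and 1207, and Myh2 had 1241 and 423. The 2 antisense genes did not pass the test between libraries (adjusted p = 0.131 and 0.0809, Fisher's exact test with Benjamini-Hochberg adjustment over all genes), so no rise is read from them.

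Desmin, the intermediate filament of muscle, has Gm15179 at its end. Gm15179 (chr1:75368212-75375012, minus strand) starts 285 bp from the start of Speg, a kinase of striated muscle, and had 25 and 99 reads, 119 of them spliced. Des had 3875 and 5163 reads, so that Gm15179 held 0.641% and 1.88% of the pair. A930016O22Rik, chosen here for its partner, lies inside Ckm, muscle creatine kinase, the most abundant partner with 83546 and 107548 reads. It had 17 and 18 reads, none spliced. Of these, 16 were placed over Ckm exons by the rules given below. Another 17 reached into the span of Ckm without meeting a rule for exons, and their models can still cross exons.

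Some antisense genes had more reads than their coding partner, the gene with the longest overlap on the other strand. Atcayos (chr10:81194609-81210877, plus strand) had 143 and 185 reads, or 118 and 119 CPM, and 77.7% of them were spliced. Atcay, which codes for the neuronal protein caytaxin, had 0 and 6 reads. Atcayos also overlaps Nmrk2, a nicotinamide riboside kinase of muscle, which had more reads than it, 205 and 531. Hoxd3os1, from the Hoxd cluster that patterns limbs and trunk, had 22 and 68 reads, 84 of them spliced, and Hoxd3 had none in either library, while Hoxd8, which it also overlaps, had 36 and 22. Gm15543 had 17 and 70 reads, and Casc1, the gene around it, had none. Gm15417 had 30 and 142 reads opposite the start of Zbtb7b, a zinc finger transcription factor, which had 5 and 8. Gm11716 had 45 and 179 reads inside Pitpnc1, a phosphatidylinositol transfer protein, which had 37 and 49, and Gm12224 had 37 and 70 inside Acsl6, a long-chain acyl-CoA synthetase, which had 19 and 31. Hectd2os had 9 and 56 reads, 20 of them spliced, opposite the ubiquitin ligase gene Hectd2, which had 3 and 1. Splicing outside the annotation was common here: the chain of Gm11716 with most reads, 20 and 88, is unannotated, as is that of Gm12224, 17 and 34.

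D830024N08Rik showed how far the annotation can miss the RNA that was read. It lies inside Tecr, an enzyme of very long chain fatty acid synthesis with 481 and 924 reads, and had 38 and 95 reads itself. Its 1 annotated transcript took 1 read in all, and an unannotated chain of 2 introns took 12 and 44. In all, 198 intron chains of members had 2 or more reads in a library, and 121 of them (61.1%) were found in both libraries. Chains equal to an annotated transcript were found in both in 52 of 71 cases, and all other chains in 69 of 127. These others include chains that are only a part of an annotated one, such as a chain of Ndufb1-ps with 8 and 48 reads. They are thus not all unannotated splicing.

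**Figure D2:**
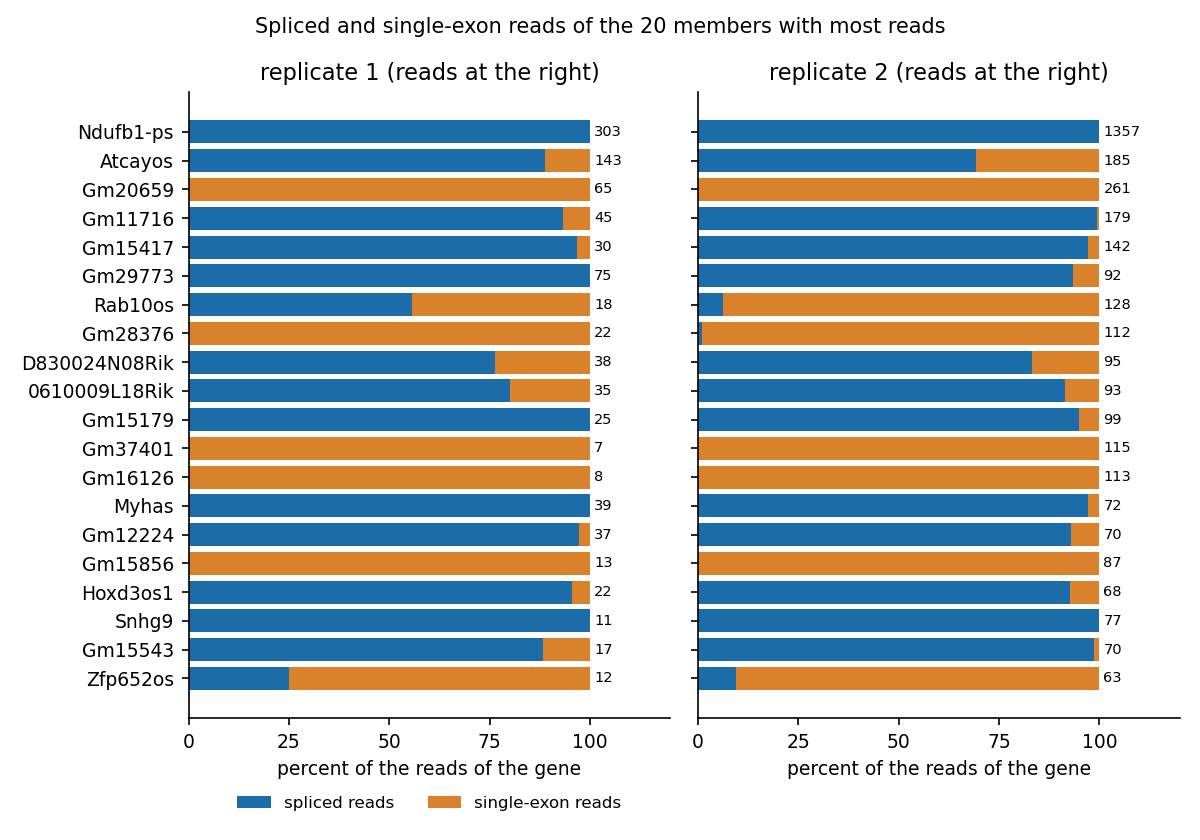
Each bar divides the reads of a gene into spliced and single-exon (horizontal axis, percent), for the 20 members with most reads and each replicate, with the read count at the right. Ndufb1-ps, Gm29773, Gm15179, Myhas and Snhg9 are spliced nearly throughout, Gm20659, Gm37401, Gm16126 and Gm15856 have single-exon reads alone, and Rab10os differs between the replicates.

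The other bidirectional members were less abundant. 0610009L18Rik had 35 and 93 reads (28.8 and 60.0 CPM), 113 of them spliced, and its start lies 136 bp from that of Actg1, cytoplasmic gamma-actin, which had 171 and 144. 1500026H17Rik had 8 and 29, Gm17251 12 and 24, and 2310010J17Rik 13 and 22. Those last 3 were spliced in 97.3%, 100% and 100% of reads. Their coding neighbours spanned a wide range: Scyl2 had 3 and 3 reads, Rab11b, a small GTPase of vesicle recycling, 190 and 171, and the clathrin assembly gene Picalm 30 and 29.

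The DNA between the 2 starts could be printed where the reference promoter sequences reach across. The lines below give the plus strand (or the minus strand for 2610306M01Rik) of 4 head-to-head pairs from RefSeq (GRCm38.p6), with the bases between the starts in capitals.
0610009L18Rik and Actg1, chr11:120348527-120348693: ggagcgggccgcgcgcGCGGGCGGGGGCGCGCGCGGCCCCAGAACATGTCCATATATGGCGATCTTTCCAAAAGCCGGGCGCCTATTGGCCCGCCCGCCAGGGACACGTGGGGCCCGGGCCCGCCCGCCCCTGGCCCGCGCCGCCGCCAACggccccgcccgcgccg
1500026H17Rik and Scyl2, chr10:89686270-89686386: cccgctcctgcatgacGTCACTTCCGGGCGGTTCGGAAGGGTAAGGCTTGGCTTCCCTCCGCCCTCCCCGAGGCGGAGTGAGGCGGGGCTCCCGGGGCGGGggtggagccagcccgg
2610306M01Rik and Aak1, chr6:86849425-86849532: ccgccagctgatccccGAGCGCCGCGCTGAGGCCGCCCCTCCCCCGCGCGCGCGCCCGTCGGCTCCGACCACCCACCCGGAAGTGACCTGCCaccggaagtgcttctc
4732491K20Rik and Map3k4, chr17:12318781-12318868: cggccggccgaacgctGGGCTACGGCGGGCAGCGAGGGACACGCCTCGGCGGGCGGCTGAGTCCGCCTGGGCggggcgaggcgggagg

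These windows are rich in G and C, between 74.4% and 81.8%. All 4 hold GGGCGG on either strand, the letters that Sp factors bind, and none holds TATAAA. Over the RefSeq promoter windows (250 bases before to 50 after the start), 63 of 121 members had an entry. Of the 13 bidirectional members among them, 10 (76.9%) held GGGCGG, 7 (53.8%) CCAAT and 0 TATAAA, on either strand. Over all 27025 promoters of the table the shares were 35.9%, 37.9% and 14.2%. A match is a string in a window and says nothing of whether a factor was bound.

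Among members with single-exon reads alone, Gm20659 had the most. It is annotated at chr11:101971143-101971859 with 1 spliced transcript, yet its 65 and 261 reads (53.5 and 168 CPM) were all single-exon. They fell on 1 model in each library, from 101971649 to 101972949 in replicate 1 and to 101972950 in replicate 2. That model lies over an exon of Dusp3, a phosphatase of MAP kinases, which had 85 and 139 reads. Gm37401 lies over an exon of Rhoa, a small GTPase of the actin cytoskeleton, and its start is 630 bp from that of Gpx1, glutathione peroxidase 1. It had 7 and 115 reads on a model of 523 bases with the same ends in both libraries. Gm16126 had 8 and 113 reads on a model of 174 bases in replicate 1 and 180 in replicate 2, which lies over no exon of its own and outside Pcolce2, the gene opposite. Gm28376, opposite the junctophilin gene Jph1 that links the muscle triad, had 22 and 112 reads, and 1 was spliced.

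By position, single-exon reads of members lay over the members' own exons in 29.4% and 20.9% of cases in replicates 1 and 2. They lay over exons of the coding gene on the other strand (at least 50% of the model's length) in 24.7% and 35.7%, and over exons of both in 1.85% and 3.39%. A further 32.9% and 21.6% reached into the span of the coding gene with under 50% of the model in exons of each gene. These are called partner intron, but such models can cross exons. With 1 base enough, 58.6% and 52.1% of reads touched an exon of the coding gene. The remaining 11.1% and 18.4% met none of these rules. They include models that run through an intron of the member itself, as with the 15 single-exon reads of 0610009L18Rik. Gm20659 weighs on these values: without it, the share over exons of the coding gene, alone or with the member's own, fell from a mean of 32.8% to 22.5%. The true place of a few models is not known, although the shares above count them at their listed coordinates. Models under 50 bases held 18 and 160 reads. Among them is that of Gm15856, which is listed with a length of 1 base. It had all 13 and 87 reads of that gene, counted over its own exons.

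**Figure D3:**
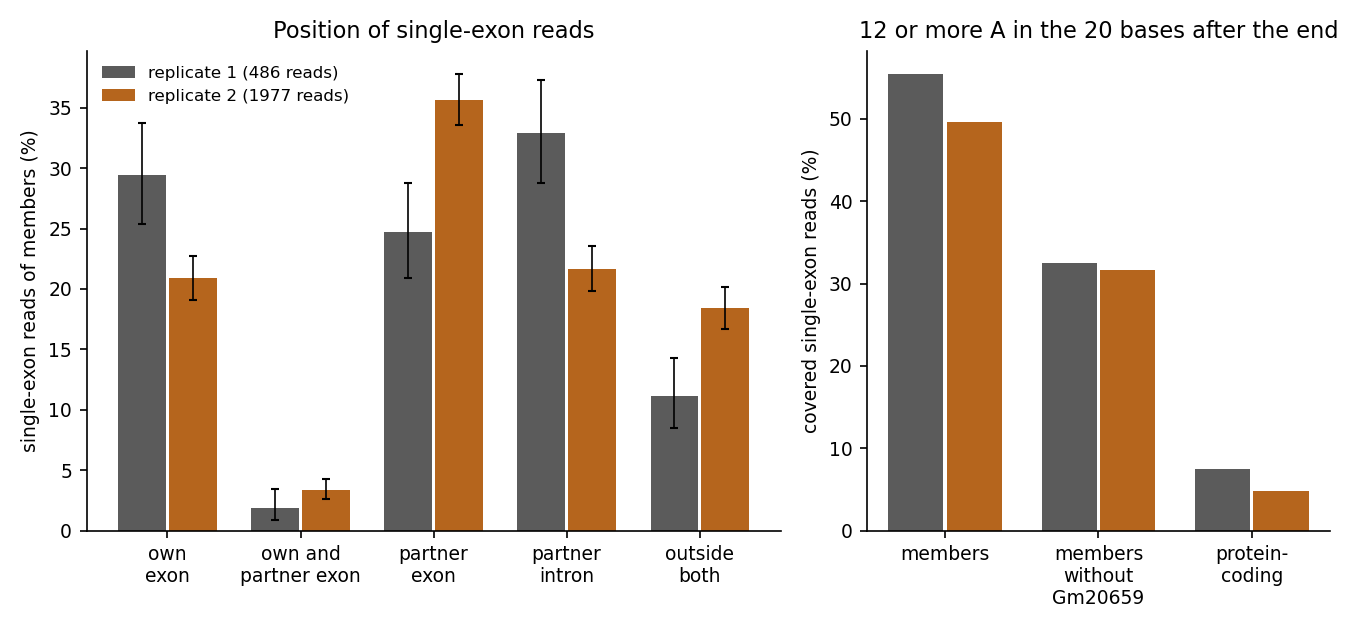
Left, the share of members' single-exon reads (vertical axis, %) by position for replicate 1 (486 reads) and replicate 2 (1977 reads), with exact 95% intervals. Exon positions need at least 50% of the model in exons. Partner intron and outside both hold the other models, by whether they reach into the span of the coding gene. Right, the share of single-exon reads whose model is followed by 12 or more A in 20 genome bases, without error bars: 55.5% and 49.6% for members, 32.5% and 31.7% without Gm20659, and 7.50% and 4.76% for protein-coding genes.

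Many of these models stop where the genome itself runs on in A. The 20 bases after a model's end could be read where annotated exons cover them, for 45.7% and 53.4% of the reads on unannotated single-exon models. On the model's strand, 61.5% and 58.2% of those bases were A, against 24.8% and 22.8% for coding genes. Gm20659 weighs on these values: without it, the shares were 44.2% and 43.3%. At least 12 of the 20 were A for 55.5% and 49.6% of covered reads, or 32.5% and 31.7% without Gm20659. In coding genes this held for 7.50% and 4.76% of covered reads. By model it held for 9 of 32 and 21 of 61 (28.1% and 34.4%), against 9.61% and 9.69% of coding models. Of the 28 members whose leading single-exon model was covered and had 5 or more reads, 13 had such a run. That count was not made for coding genes. The files give 1 pair of ends per model, not per read. Priming of the oligo(dT) primer on A in the genome or in unspliced RNA was not tested. The lines below give the last 10 bases of the model in lower case and the 20 bases after its end in capitals, 5′ to 3′ on the member's strand, from the GENCODE M21 transcripts, for 4 models with a run of A and 3 without.
Gm20659, chr11:101972941-101972970: attctgggccAAAAAAAAAAAAAAAAAAAA
Gm44686, chr7:73546088-73546117: gactaacctcAAAAAAAAAAAAAAAAAAAA
Gm16185, chr9:97090818-97090847: ataatactgcAAAAAAAAAAAAAAAAAAAA
Gm13008, chr4:136005233-136005262: tatagaggacAAAAAGAAAAAAACAAAAAA
Rab10os, chr12:3249050-3249079: acagggtggcCCAAGGACCTGGTGGCAGGA
Gm37401, chr9:108337392-108337421: tacatctagtCTGGGGTAGATATATTTATT
Uckl1os, chr2:181582141-181582170: gtgactttaaTACATAGTTGATGGCCCACC

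Gm44686, Gm16185, Gm13008 and Uckl1os are named for these ends, after their values were seen. Gm13008 had 16 and 14 reads, 27 of them over exons of Eloa, a subunit of the elongin complex. Gm44686 had 4 and 36 reads. The models of Rab10os and Gm37401, with 119 and 115 reads in replicate 2, have no such run.

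Each member was then set beside the coding gene opposite. A coding gene on the other strand overlapped 113 members, 7 more started within 2000 bp of a coding start and ran away from it, and Foxo6os had no such partner. Exons of the 2 genes overlapped for 77 members. Of the 120 members with a partner, 53 had more reads than it in sum and 37 had more in each library, although 3 of the 37 had fewer in each library than a further coding gene they overlap. The partners had a median of 36.5 reads, and 87 of the 121 members (71.9%) had a partner with 10 or more reads, against 40.8% of the 3028 annotated genes of these types below the minimum. A partner among the 200 most abundant coding genes was found for 5 members (4.13%) and for 0.727% of the genes below the minimum. Members and genes below the minimum are divided by the reads that the rule used, so these contrasts are a description. Whether reads of the partner lifted members over the minimum was not tested. As a description, on the log2(CPM + 1) scale Pearson's r between member and partner was 0.17 in replicate 1 and 0.25 in replicate 2 over 120 pairs, and Spearman's rho 0.20 and 0.27. The pairs share a library, and 2 members lie opposite Fyn.

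**Figure D4:**
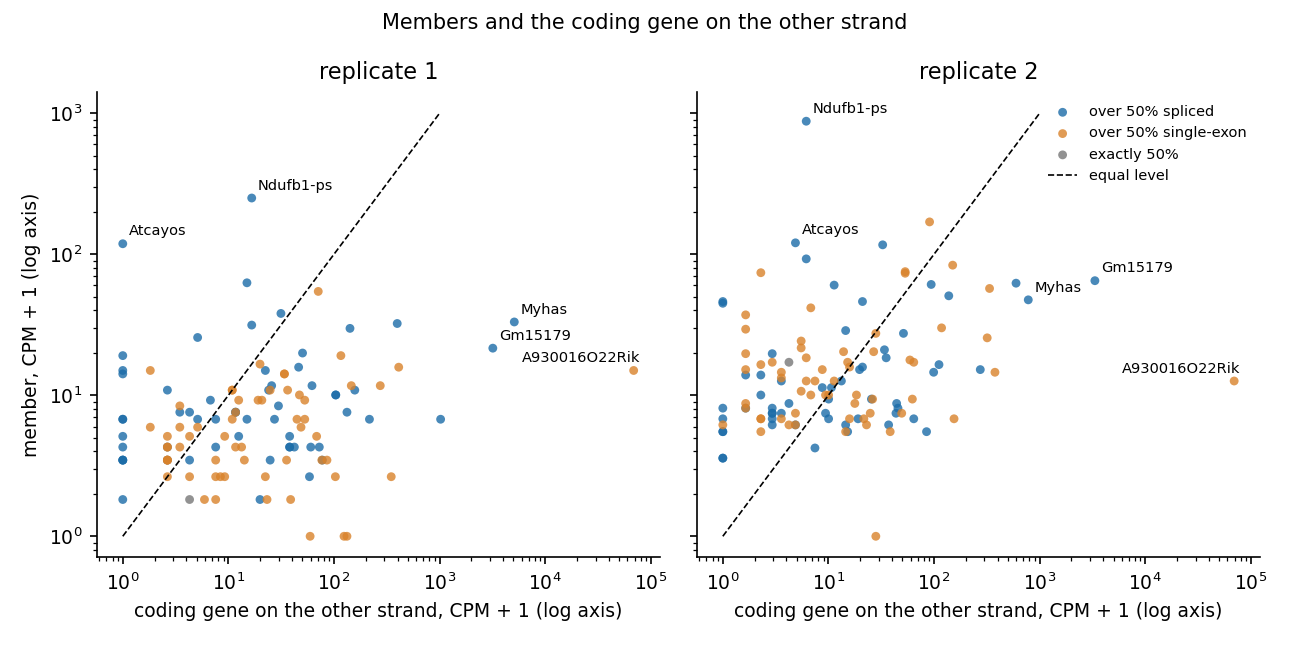
Each point is a member with a coding partner, with the partner's level on the horizontal axis and its own on the vertical axis (CPM + 1, log axes), for each replicate. Ndufb1-ps and Atcayos lie far above the line of equal levels, and Myhas, Gm15179 and A930016O22Rik far below it.

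Starts of members lay within 2000 bp of a coding start on the other strand for 55 members (45.5%), and for 31.0% of the genes of these types below the minimum. In 22 of the 55 that neighbour was not the gene overlapped, as with Acta1, Myh4, Myh1 and Speg above. The neighbour had 10 or more reads in 40 of the 55 cases (72.7%), against 48.7% for genes below the minimum. Here too the genes are divided by the reads that the rule used, and the contrasts are a description.

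A list of 26 genes, picked by hand as antisense genes with a described role, was also looked up. Of these, 17 carry a member type, and most others are annotated as processed transcripts or lincRNA. The list is not a sample of antisense genes, so its shares are a description. A read was found for 10 of the 17 (58.8%), against 23.9% of all 3149 genes of these types, and 2 of the 17 (11.8%), Airn and Hoxd3os1, were members, against 3.84%. Airn had 12 and 30 reads (9.87 and 19.4 CPM), of which 10 were spliced. A further 18 were single-exon reads in the position called partner intron, within the span of Igf2r, where models can cross exons. Igf2r, the receptor that clears insulin-like growth factor 2, had 29 and 20 reads. Kcnq1ot1, which silences its imprinted domain, had 1 and 0 reads, Hotairm1 of the Hoxa cluster had 1 and 5, and Tsix, the antisense of Xist, had none. Mhrt, the antisense RNA of the cardiac Myh7 locus, had 0 and 3. Kcnq1ot1, Mhrt, Dnm3os, Dlx1as, Hoxb3os and Hoxaas3 count among the 10 on 1 to 3 reads each, none of them spliced.

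Between the libraries, the members as a set had the higher level in replicate 2. Their summed level was 1345 CPM in replicate 1 and 3346 CPM in replicate 2, a ratio of 2.49, with 2.19 for spliced and 3.19 for single-exon reads. The level was higher in replicate 2 for 102 of 121, and the median log2 ratio of CPM + 1 was 0.97, against -0.27 over all 8692 genes and 1.01 over lincRNA genes. By Fisher's exact test per gene, with Benjamini-Hochberg adjustment over all genes, 48 members (39.7%) differed, where 43.3% of all genes did. Of these, 46 were higher in replicate 2, where 17% of all genes were, and 2 were lower, where 26.3% of all genes were. The share of members called was near that of all genes. The minimum bears on these counts, which are a description: it counts both libraries together, and 91 members reached it in replicate 2 alone but 44 in replicate 1 alone.

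Single-exon members held most of these calls. Among members with over 50% single-exon reads, 30 of 60 were higher and 1 was lower, and among those with over 50% spliced reads 15 of 60 were higher and 1 was lower. Gm15935, inside the phosphatase gene Dusp13, had 0 and 45 reads, and the exact 95% lower limit of its ratio was 9.18 (adjusted p = 8.88e-11, Fisher's exact test). Gm37401 was 12.9-fold higher (6.06 to 32.8, adjusted p = 6.9e-20, Fisher's exact test) and Gm16126 11.1-fold (5.44 to 26.3, adjusted p = 2.07e-18). Other members named by the rule had few reads in replicate 1: Brip1os had 3 and 44 reads, a ratio of 11.5 with a counting interval of 3.69 to 57.9, Gm15932 had 0 and 26, and Gm10602 had 1 and 25. Ndufb1-ps, spliced, was 3.51-fold higher (3.10 to 3.99) and Gm11716 3.12-fold (2.24 to 4.43), and both passed the test. Lower in replicate 2 were B230354K17Rik, with 16 and 4 reads (13.2 and 2.58 CPM, adjusted p = 0.00443, Fisher's exact test), and Gm26724, with 10 and 0. Gm15935, Gm37401, Gm16126, Brip1os, Gm15932 and Gm10602 reached the minimum of 10 reads in replicate 2 alone. B230354K17Rik and Gm26724 reached it in replicate 1 alone. Apart from Gm26724 these members were also named for the size of their ratios. Their p-values and intervals are thus a description of these libraries.

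**Figure D5:**
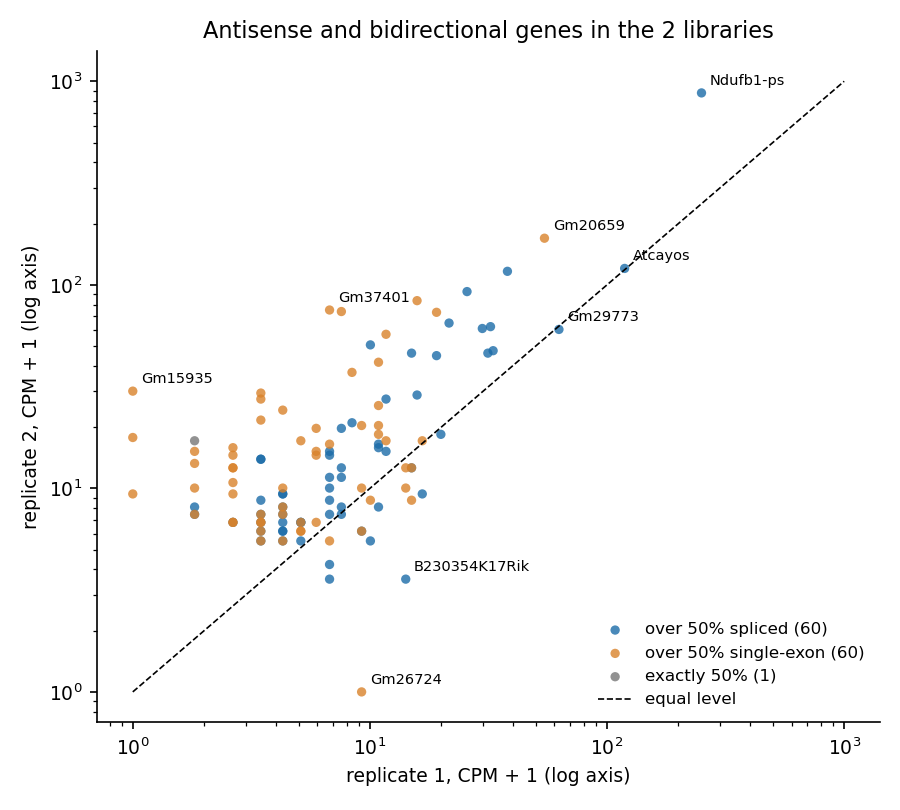
Each point is 1 of the 121 members, with its level in replicate 1 on the horizontal and in replicate 2 on the vertical axis (CPM + 1, log axes). Atcayos and Gm29773 lie on the line of equal levels, Ndufb1-ps and Gm20659 above it, and 102 members lie above it in all.

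When a biological coefficient of variation of 0.4 was assumed in edgeR's exact test, 1 member was called and 0.092% of all genes. With TMM scaling, which moved all log2 ratios by 0.29, 57 members and 40.9% of all genes were called, 55 members and 22.5% of all genes as higher. DESeq2 size factors also called 57 members, and 40.7% of all genes. The single-exon share of all genes also differed, 4.93% in replicate 1 and 13.8% in replicate 2, as did the summed markers of fast and slow fibres, fibroblasts and Schwann cells given above. Their part in the members' difference was not tested. Without reads of the genomic class 20 of the 71 members tested (28.2%) were called, where 48.5% of all genes were.

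Within members, the division into spliced and single-exon reads was compared between the libraries. It could be tested for the 39 members with 10 or more reads in each library, and 3 passed Fisher's exact test adjusted over all 5640 such genes (7.69%), where 27.4% of all these genes did. Many of the rest had few reads, so a test not passed does not show that their shares were alike. Rab10os, which lies opposite the end of Rab10, a small GTPase of membrane traffic, had 8 single-exon reads of 18 in replicate 1 and 120 of 128 in replicate 2 (adjusted p = 1.56e-05). Atcayos had 16 of 143 and 57 of 185 (adjusted p = 0.000148). Gm15337 went the other way, with 17 of 17 and 6 of 12 (adjusted p = 0.00945), the direction of 0.16% of all genes. Without reads of the genomic class 24 members could be tested and none was called, where 11.1% of all genes were.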

How the data were processed

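Long-read RNA sequencing of 2 gastrocnemius libraries was used. Per the file headers, the deposited tables hold whole, unscaled read counts for each transcript model beside its number of exons and its length, and deposited annotations on mm10 hold the coordinates. The authors assigned reads to GENCODE M21 transcripts or to new models with a class. The aligner, the read filters and any use of strand are not given in the sources at hand. Reads were summed over the models of each annotated gene, whatever their class, and spike-ins were left out. Chains were matched by chromosome, strand and exact introns, since identifiers are made per library. The partner was the coding gene on the other strand with the longest overlap of spans or, without overlap, with the nearest start within 2000 bp. Gene spans were those of M21.

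Members, lists and tests were chosen with earlier results of these data known. A two-sided Fisher's exact test set a gene's reads beside the remaining gene-assigned reads of each library, for genes with at least 10 reads in sum, and another set single-exon beside spliced reads, for genes with at least 10 reads per library (threshold 0.05, Benjamini-Hochberg). Log2 ratios compare CPM + 1 in replicate 2 with that in replicate 1. Folds given with an interval are ratios of CPM with exact 95% intervals. Means and SDs are over 2 libraries. Reads of an amplified library are not independent molecules, so intervals and tests cover counting error only. Bases were read from M21 transcripts placed at their exons, and from RefSeq promoters, which matched 63 of 121 members.

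Named members are the 15 with most reads and the 8 with most spliced reads. Up to 6 in each direction past the test with 20 or more reads and the largest log2 ratio were added. So were up to 10 above their partner in both libraries. Next came the 5 with most reads on a chain found in both that matches no annotated transcript in full. The 6 bidirectional ones with most reads, those of the list of known antisense genes, and those at the minimum complete the rule. A bidirectional member that meets this rule is not reported here. Others are named for a feature after their values were seen: A930016O22Rik, 9430073C21Rik, Snhg9, Gm15856, Foxo6os, Gm15337, 2610306M01Rik and 4732491K20Rik. The tests were tested on simulated data. Python 3.11.15, scipy 1.17.1, edgeR 4.0.16 and DESeq2 1.42.0 (scaling only) were used. Alternatives covered minimums, classes, scaling, an assumed spread, overlaps, single members and leaving out each library.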

Additional observations from a re-analysis of the deposited data

How the results depend on the processing

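Of 47 alternatives, 26 left the value within its limits and 21 moved it. The order of the libraries turned for the single-exon share without genomic reads (8.06% in replicate 1, 5.71% in replicate 2) and for the share over exons of the coding gene when 1 base was enough (58.6% and 52.1%). The number of members was 238 at a minimum of 5 reads, 71 at 20 reads, 71 without genomic reads and 40 on annotated transcripts alone, and 44 to 91 with 1 library left out (44 in replicate 1 alone). The mean single-exon share was 6.89% without genomic reads, 44.0% without Ndufb1-ps and 46.1% without the 5 members with most reads, and 29.7% to 38.1% with 1 library left out. Members with over 50% spliced reads numbered 97 at 5 reads and 33 at 20, and 59 to 64 with 1 library left out. The library test called 20 of 71 members without genomic reads (28.2%, all genes 48.5%), 20 of 62 on spliced reads alone (32.3%, all genes 48.3%), 57 with TMM and with DESeq2 scaling, and 1 with an assumed coefficient of variation of 0.4, where 27 (22.3%) and 8.61% of all genes had an unadjusted p under 0.05. The single-exon share differed for 5 of 71 members at 5 reads per library (all genes 21.7%), 1 of 14 at 20 (34%) and 0 of 24 without genomic reads (11.1%). Overlap of at least 50% of the member's span was met by 59. Single-exon reads over exons of the coding gene made up 55.4% when 1 base was enough, 23.5% without the 5 members with most reads and 22.5% without Gm20659 (added after the data were seen), and 26.5% to 39.0% with 1 library left out. Chains in both libraries numbered 67 at 5 reads. Members above their partner numbered 37 to 67 with 1 library left out. Leaving out models under 50 bases, also added later, gave 117 members. No paired analysis was possible because the series has 1 group. At this depth a member with 10 reads has a level of a few CPM, and sequence after the ends and at introns was read only where annotated exons cover it.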
